A study of Mus musculus with 12 samples.

Results

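Acetylation of histone H3 at lysine 27 (H3K27ac) was examined at the genes of the histone lysine methylation enzymes in 4T1 cells, a metastatic mouse mammary carcinoma line. The members were the genes whose name in the deposited table began with Kdm, Kmt, Setd or Suv39h, together with Ezh1, Ezh2, Ehmt1, Ehmt2, Nsd1, Dot1l, Setdb1 and Setdb2. They came to 42 of 22264 gene names and to 338 of 126464 genomic intervals, and the rule uses names only. Kdm5d and Kdm7a, which the rule also covers, had no interval under their own name.

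Wild-type 4T1 cells were kept for 48 h in vehicle, in 5 mM acetate, in 50 µM etomoxir, in 50 µM etomoxir with 5 mM acetate, in 50 µM etomoxir with 50 µM SB204990, or in all 3 agents. Etomoxir blocks carnitine palmitoyltransferase 1 and so the entry of long-chain fatty acids into mitochondria, and SB204990 inhibits ATP-citrate lyase, which makes acetyl-CoA from citrate. No group received SB204990 without etomoxir. Acetate can be turned into acetyl-CoA, the acetyl donor of histone acetyltransferases, and the design asks how the supply of acetyl-CoA bears on H3K27ac. Each of the 6 treatments had 2 libraries, called set 1 and set 2 after the shared part of their sample names. The labels do not say whether the sets came from separate cultures, so the p-values measure the spread between these libraries, which may be technical, and all of them come from 1 cell line.

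Histone lysine methyltransferases, most of them SET-domain proteins, place methyl groups on particular lysines, and demethylases of the amine oxidase (LSD1) and Jumonji families take them off. Methylation of H3K4 marks promoters and enhancers, that of H3K36 and H3K79 marks transcribed gene bodies, and that of H3K9, H3K27 and H4K20 is tied to silent or compacted chromatin. Methylation and acetylation compete for the same residue at H3K27, and H3K27ac itself marks active promoters and enhancers. The measurements below are H3K27ac at the genes that encode these enzymes, not the activity or the level of the enzymes.

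Every deposited value was a read count multiplied by a single factor per library, set from the human chromatin added at 7.5% as a spike-in, and is called the scaled read count here. Reads in the intervals ran from 7179165 to 16676442 per library and the factors from 0.398 to 1, and the members held between 0.245% and 0.264% of the scaled reads of a library. The second etomoxir + SB204990 library had the fewest reads. Among the members' intervals under 400 bp (n = 89), etomoxir + SB204990 vs. vehicle gave a summed log2 difference of -0.42 in set 1 and 0.23 in set 2, and among those of 2000 bp or more (n = 67) it gave -0.28 and -0.17. Etomoxir vs. vehicle, which does not use that library, gave 0.53 and -0.22 in the short intervals and 0.23 and 0.15 in the long ones. The start sites of all 5 epithelial markers checked (Epcam, Cdh1, Krt8, Krt18 and Krt14) lay in an H3K27ac interval, against 1 of 4 leukocyte markers (Cd68, in a 39556 bp interval at 46.7 scaled reads per kb), 1 of 3 endothelial markers (Pecam1, in a 949 bp interval at 9.52 scaled reads per kb) and 0 of 2 adipocyte markers. Krt8 and Krt18 start in the same 80588 bp interval. The intervals at the starts of the epithelial markers held 42.0 to 43.6 scaled reads per kb in vehicle. By name, 4 of 5 epithelial, 3 of 4 leukocyte, 3 of 3 endothelial and 1 of 2 adipocyte markers had an interval. The sums over named intervals overlapped between the types, with 622.5 scaled reads in vehicle at Pecam1 and 404.7 at Krt14.

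The start sites of 41 of the 42 genes (97.6%) lay in an H3K27ac interval, with Ezh1, a catalytic subunit of Polycomb repressive complex 2 (PRC2), as the exception. Of all 21840 protein-coding genes, 54.9% had a start site in an interval. By the rule each member had an interval under its name, which the 21840 genes need not have. The 2 shares are therefore not like for like. By the annotation in the table, 186 of the 338 intervals were intronic, 52 were promoter intervals, 39 lay at transcript ends, 36 were exonic and 25 intergenic. Their median length was 737.5 bp, and single genes had between 1 interval (9 genes) and 28 (Kdm4b, an H3K9 demethylase).

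The name that the table gives an interval was often not the gene that starts in it. For 15 of the 41 genes the start-site interval carried the name of another gene, as it did for 32.3% of all coding genes with such an interval. The interval at the start of Kdm4b was named Uhrf1, that of Kdm5b (an H3K4 demethylase) Mgat4e, that of Kdm2b A930024E05Rik, that of Kmt2d 5730414N17Rik and that of Kdm4c A230083N12Rik. Kdm6a, Kmt2c and Setd4 had under their own names only short intervals of 219, 192 and 360 bp, with a mean scaled read count under 10. Their start sites lay in intervals named Dusp21, Cct8l1 and Cbr1. Kdm7a, absent by name, started in a 3491 bp interval named Gm49041, and Kdm5d started in none. Results are therefore given for the sum over the intervals that bear a gene's name and for the interval that holds its start site. Of the start-site intervals, 10 also held the start of another coding gene, and their reads cannot be assigned to 1 gene.

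The start-site intervals were wide. Their median length was 6618 bp, against 6548 bp over all coding genes with one, and they ran from 2708 bp at Kdm1b to 60204 bp at Dot1l, the H3K79 methyltransferase. The Dot1l interval also covers the starts of Amh, Plekhj1 and Sf3a2. Of the 41 intervals, 12 (29.3%) were at least 15 kb long, against 22.2% over all coding genes. In 31 of the 41 the interval reached further downstream of the start site than upstream, with medians of 4469 bp downstream and 2340 bp upstream.

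The sequences just upstream of the starts were read from RefSeq (GRCm38.p6), which held a promoter window for 33 of the 42 genes. Of these windows 31 lay within the start-site interval. That of Ezh1 did not, as its start has no interval, and that of Setd5 belongs to a start 27570 bp from the one used here. The windows of Setd1a and Kdm4a are set on starts 719 and 389 bp away. Over the 300 bases from 250 before to 50 after the start, the members' windows had a median GC content of 63.0% and a median of 28 CpG dinucleotides. All 32851 windows had medians of 52.7% and 7, and the 14792 windows that start in an H3K27ac interval 60.0% and 19. A GC box (GGGCGG, either strand) stood in 21 of the 33 windows (63.6%), against 35.7% of all windows and 57.9% of those in an interval. The CCAAT motif stood in 12 (36.4%, against 37.4% and 36.8%), and the ETS core CGGAAG in 12 (36.4%, against 16.9% and 28.7%). TATAAA stood in 0 of the 33, against 13.6% of all windows and 7.58% of those in an interval. The windows were thus rich in GC and CpG, as windows in intervals are in general.

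The 250 bases before the start for the 3 genes with the highest average change with acetate in the start-site interval (Kdm2b, Kdm1b, Kdm5b), for the 3 with the lowest (Kdm3a, Kdm8, Kmt5b), each among those with a window, and for Suv39h1, which had the lowest signal per kb, are as follows. Capitals mark any of the 4 motifs on either strand, and overlapping motifs run together. All are written 5′ to 3′ on the strand of the gene.
Kdm2b (chr5:122988508-122988757, minus strand): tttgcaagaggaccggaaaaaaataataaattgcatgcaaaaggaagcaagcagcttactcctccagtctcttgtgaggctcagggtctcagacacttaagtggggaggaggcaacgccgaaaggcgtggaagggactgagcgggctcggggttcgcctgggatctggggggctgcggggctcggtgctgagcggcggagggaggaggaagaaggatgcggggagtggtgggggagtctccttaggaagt
Kdm1b (chr13:47043249-47043498, plus strand): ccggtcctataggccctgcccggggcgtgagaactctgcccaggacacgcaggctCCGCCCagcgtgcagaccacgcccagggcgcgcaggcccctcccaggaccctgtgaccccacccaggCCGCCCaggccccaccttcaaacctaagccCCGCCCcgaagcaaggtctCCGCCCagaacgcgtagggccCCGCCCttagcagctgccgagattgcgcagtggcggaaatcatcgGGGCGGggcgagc
Kdm5b (chr1:134559928-134560177, plus strand): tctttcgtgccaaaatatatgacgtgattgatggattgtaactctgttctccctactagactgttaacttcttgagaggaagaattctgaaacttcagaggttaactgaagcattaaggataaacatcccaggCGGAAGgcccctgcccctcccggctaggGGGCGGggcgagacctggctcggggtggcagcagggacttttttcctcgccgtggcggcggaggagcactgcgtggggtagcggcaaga
Kdm3a (chr6:71632687-71632936, minus strand): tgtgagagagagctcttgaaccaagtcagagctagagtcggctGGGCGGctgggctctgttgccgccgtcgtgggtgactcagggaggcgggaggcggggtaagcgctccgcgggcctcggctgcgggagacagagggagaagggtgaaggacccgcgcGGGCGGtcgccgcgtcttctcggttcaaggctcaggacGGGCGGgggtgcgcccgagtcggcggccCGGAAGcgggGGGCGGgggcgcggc
Kdm8 (chr7:125444370-125444619, plus strand): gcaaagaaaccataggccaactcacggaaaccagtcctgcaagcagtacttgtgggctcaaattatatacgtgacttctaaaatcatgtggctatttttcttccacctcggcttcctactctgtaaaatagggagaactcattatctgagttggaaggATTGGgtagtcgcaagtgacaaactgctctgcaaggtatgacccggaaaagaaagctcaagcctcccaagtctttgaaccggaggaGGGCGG
Kmt5b (chr19:3767171-3767420, plus strand): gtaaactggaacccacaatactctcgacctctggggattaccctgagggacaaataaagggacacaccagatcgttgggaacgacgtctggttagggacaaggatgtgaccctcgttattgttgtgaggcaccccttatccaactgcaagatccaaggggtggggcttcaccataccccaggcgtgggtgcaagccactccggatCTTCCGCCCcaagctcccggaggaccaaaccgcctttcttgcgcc
Suv39h1 (chrX:8074362-8074611, minus strand): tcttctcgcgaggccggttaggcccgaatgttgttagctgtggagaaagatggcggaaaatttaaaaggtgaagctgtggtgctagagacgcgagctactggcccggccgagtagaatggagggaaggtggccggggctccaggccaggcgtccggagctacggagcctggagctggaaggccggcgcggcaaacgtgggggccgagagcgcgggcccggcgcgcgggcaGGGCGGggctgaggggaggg
The 250 bases of Kdm2b held none of the 4 motifs, and those of Kdm1b held 6 GC boxes. Among the 3 with the lowest change, Kdm3a held 4 GC boxes and 1 ETS core, Kdm8 held 1 GC box and 1 CCAAT motif, and Kmt5b held 1 GC box that overlaps 1 ETS core. GC content ran from 46.8% at Kdm8 to 72.8% at Kdm3a. It was 58.4%, 71.6% and 54.4% at the 3 with the highest change and 72.8%, 46.8% and 56.4% at the 3 with the lowest.

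Per kb of interval, the members' start sites carried a median of 37.8 scaled reads in vehicle (quartiles 31.2 and 48.5), against a median of 31.2 (quartiles 22.8 and 41.4) over all coding genes with an interval. Kmt5b, an H4K20 methyltransferase, had the highest level at 80.9 ± 7.1 scaled reads per kb (SD, n = 2), with 85.9 in set 1 and 75.9 in set 2. Setd2, which trimethylates H3K36, followed with 75.4 ± 7.2, a difference within the spread of the libraries. The H3K4 methyltransferase gene Setd1b (65.2 ± 3.1), the H3K9 demethylase gene Kdm3a (65.1 ± 1.2) and Ezh2 (59.3 ± 0.41), the PRC2 subunit of dividing cells, came next, and of these Setd1b and Kdm3a overlapped. The lowest level was at Suv39h1, a methyltransferase of heterochromatin, with 16.6 ± 1.6 scaled reads per kb. Kdm4b (18.99 ± 2.6), Kmt5a (19.02 ± 0.47) and Setdb1 (20.4 ± 1.8), which silences retroelements, stood next, and each overlapped its neighbour in this order. Methyltransferase genes thus held both ends of the order. Kmt5b, Kmt2b, Kdm5a and Setdb2 are named here and below because of their values and not by the rule for named genes.

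Acetate was followed by higher H3K27ac at nearly all of these genes. The members' summed scaled reads averaged 17990 ± 1129 (SD, n = 2) in vehicle and 24995 ± 458 in acetate. In etomoxir they averaged 20521 ± 399, and with acetate added 34116 ± 1291. In etomoxir + SB204990 they averaged 15854 ± 2416, and with acetate added 25600 ± 5073. In each pair both libraries with acetate were above both without. Over the 3 backgrounds together, 38 of the 39 genes tested by their sums rose in limma's test at a Benjamini-Hochberg adjusted p under 0.05, and over all genes 88.2% rose. The median log2 fold change was 0.63 for the members and 0.63 for all genes.

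In the start-site intervals, 41 of 41 genes rose in the same test, and over all genes 99.2% did. The median log2 fold change was 0.58, against 0.61 over all genes, and the members ranged from 0.35 to 0.87. The 5th and 95th percentiles of all genes were 0.44 and 0.81. In an exact permutation of the acetate labels within each background (two-sided, 216 arrangements, smallest possible p 0.00926), 40 of the 41 genes reached the smallest p, against 89.0% of all genes. Kdm3a had an exact permutation p of 0.0278. By their sums 34 of the 39 reached it, against 65.8% of all genes, and 37 had an adjusted permutation p under 0.05, against 84.9% of all genes. The 2 that did not were Kdm5a (adjusted exact permutation p = 0.0628) and Kdm4c (0.349). When reads were first turned into shares of their library and then multiplied by its factor, 0 members passed limma's test, 1 sum and 6 start-site intervals were higher before adjustment, and all 39 sums (median 0.43) and all 41 start-site intervals (median 0.38) lay above 0.

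At the genes of the H3K4 enzymes, as at 99.2% of all start-site intervals, H3K27ac rose with acetate. All 8 genes listed here with the H3K4 methyltransferases (Kmt2a, Kmt2b, Kmt2c, Kmt2d, Kmt2e, Setd1a, Setd1b and Setd7) were higher in their start-site intervals. They had a median average log2 fold change of 0.63 and a range of 0.53 to 0.71. Among them Kmt2d, which methylates H3K4 at enhancers, had 629.6 and 614 scaled reads in vehicle and 901 and 830.5 in acetate. It had 671 and 657 in etomoxir and 1112 and 1055 with acetate added, and 487 and 544 in etomoxir + SB204990 and 773 and 1067 with acetate added. No library without acetate reached a library with acetate at the Kmt2d start. Its average log2 fold change there was 0.67 ± 0.10 (SE, limma, adjusted p = 5.1e-10), and in the sum over the intervals that carry its name it was 0.91 ± 0.16 (adjusted p = 4.01e-05), the highest of the 39. Kmt2a, the founding MLL gene, changed by 0.61 ± 0.10 and Setd1a by 0.56 ± 0.10 at their starts. The H3K4 demethylase genes Kdm5a, Kdm5b and Kdm5c rose as well, by 0.51, 0.75 and 0.49.

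At the genes of the H3K9 enzymes, 6 of 6 methyltransferase genes and 6 of 6 demethylase genes rose at their start sites, against 99.2% over all genes. The methyltransferase genes had a median log2 fold change of 0.61, from 0.51 at Setdb2 to 0.68 at Ehmt2, which with Ehmt1 places mono- and dimethylation. Setdb1 had 111 and 126 scaled reads in vehicle, 163 and 173 in acetate, 149.7 and 156 in etomoxir and 259 and 244 in etomoxir + acetate. With SB204990 it had 95.6 and 98 without acetate and 137 and 203 with it. In every background the acetate libraries of Setdb1 were higher, and the set 1 library with all 3 agents was below both etomoxir libraries. The demethylase genes spanned a wider range, from Kdm3a at 0.35 to Kdm4b at 0.74.

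Kdm3a, which removes mono- and dimethylation from H3K9, changed least at its start site. Its interval had 234 and 228 scaled reads in vehicle and 285 and 227 in acetate, so that the groups overlapped. It had 250.3 and 281 in etomoxir and 309 and 331 with acetate added, and 200.3 and 157 in etomoxir + SB204990 and 237 and 323 with acetate added. Its average log2 fold change was 0.35 ± 0.11 (SE, limma, adjusted p = 0.00101), and its acetate vs. vehicle value alone was 0.14 ± 0.18 (adjusted p = 0.458). Kdm8, a Jumonji protein listed here with the H3K36 demethylases, followed with 0.44 ± 0.11, and Kmt5b with 0.45 ± 0.10.

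Kdm2b, a demethylase whose CXXC domain brings a variant Polycomb complex to CpG islands, and Kdm1b, the paralogue of LSD1, had the highest average changes at their starts. Kdm2b had 194 and 194 scaled reads in vehicle and 342 and 329 in acetate, 219 and 222 in etomoxir and 462 and 409 with acetate added. With SB204990 it had 145 and 182 without acetate and 245 and 352 with it. Its log2 fold change was 0.87 ± 0.11 (SE, limma, adjusted p = 2.31e-14). In the sum over intervals named Kdm2b, which leaves that interval out, the change was 0.63 ± 0.13. Kdm1b changed by 0.87 ± 0.13 in an interval that also holds the start of Tpmt, and Kdm1a, the LSD1 gene itself, by 0.68 ± 0.11.

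The genes of the enzymes that act on H3K27 itself rose too, as 99.2% of all start-site intervals did. Ezh2 had 344 and 341 scaled reads at its start in vehicle and 509 and 399 in acetate, 374 and 389 in etomoxir and 549 and 529.9 in etomoxir + acetate. With SB204990 it had 313 and 279 without acetate and 381 and 566 with it. The acetate libraries of Ezh2 were higher in each background, and its average log2 fold change was 0.51 ± 0.10 (SE, limma, adjusted p = 1.15e-06). Ezh1, with no interval at its start, changed by 0.70 ± 0.16 in the sum over its named intervals. The H3K27 demethylase genes Kdm6a and Kdm6b changed by 0.51 ± 0.11 and 0.65 ± 0.10 at their starts. Relative to the typical gene, after median-of-ratios scaling, Ezh2 stood at -0.10 at its start.

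Dot1l had the largest start-site signal of those plotted by library, with 2098 and 2396 scaled reads in vehicle and 3165 and 3325 in acetate. It had 2703 and 2489 in etomoxir and 4770 and 4503 with acetate, and 1805 and 2187 in etomoxir + SB204990 and 3090.4 and 3891 with acetate added. Its average log2 fold change was 0.72 ± 0.10 (SE, limma, adjusted p = 5.55e-12). The H3K36 methyltransferase genes Setd2 and Nsd1 changed by 0.56 ± 0.10 and 0.56 ± 0.11, and the H4K20 methyltransferase genes by 0.45 to 0.65. Of the 4 SET-domain genes whose substrates are debated or not histones (Setd3, Setd4, Setd5 and Setd6), all rose, by 0.52 to 0.63, against 99.2% of all genes that rose. The 21 methyltransferase genes had a median of 0.61 and the 16 demethylase genes one of 0.56, a difference that was not tested.

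**Figure D1:**
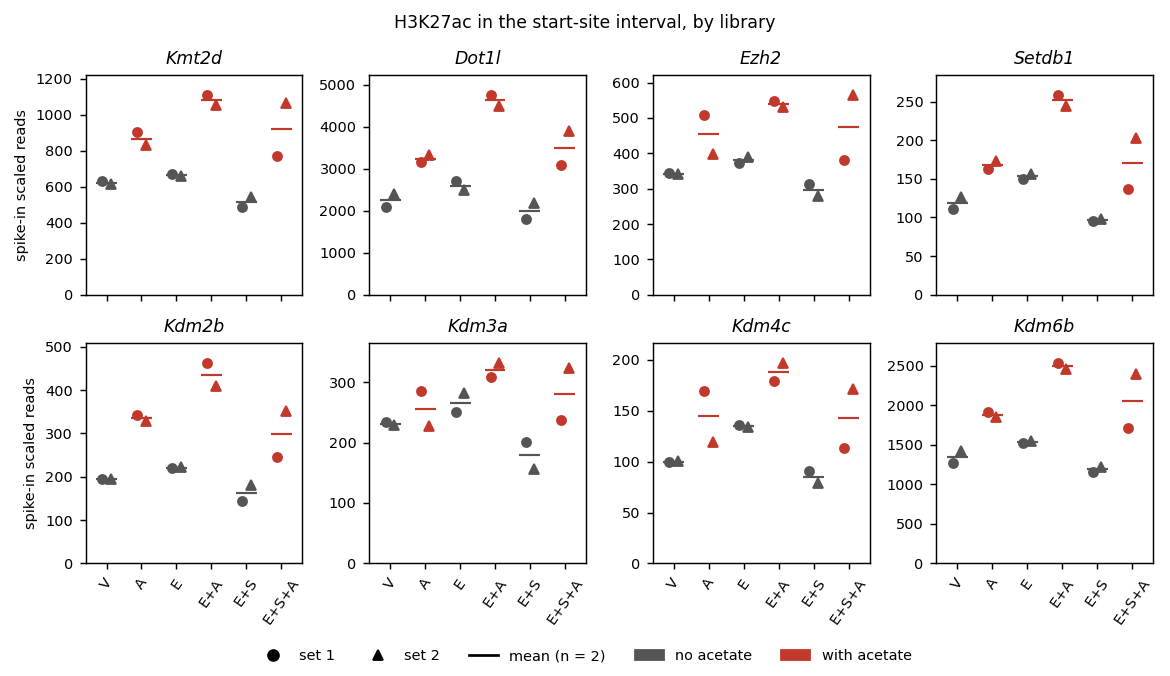
Scaled H3K27ac reads (y axes, each starting at 0) in the start-site interval of 8 histone lysine methylation enzyme genes by library, for vehicle (V), acetate (A), etomoxir (E), etomoxir + acetate (E+A), etomoxir + SB204990 (E+S) and all 3 agents (E+S+A). Circles are set 1, triangles set 2 and bars the mean of the 2 libraries. Libraries with acetate lie above those of the same background without it in all 8 genes, except for 1 acetate library of Kdm3a at 227 beside vehicle at 234 and 228.

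**Figure D2:**
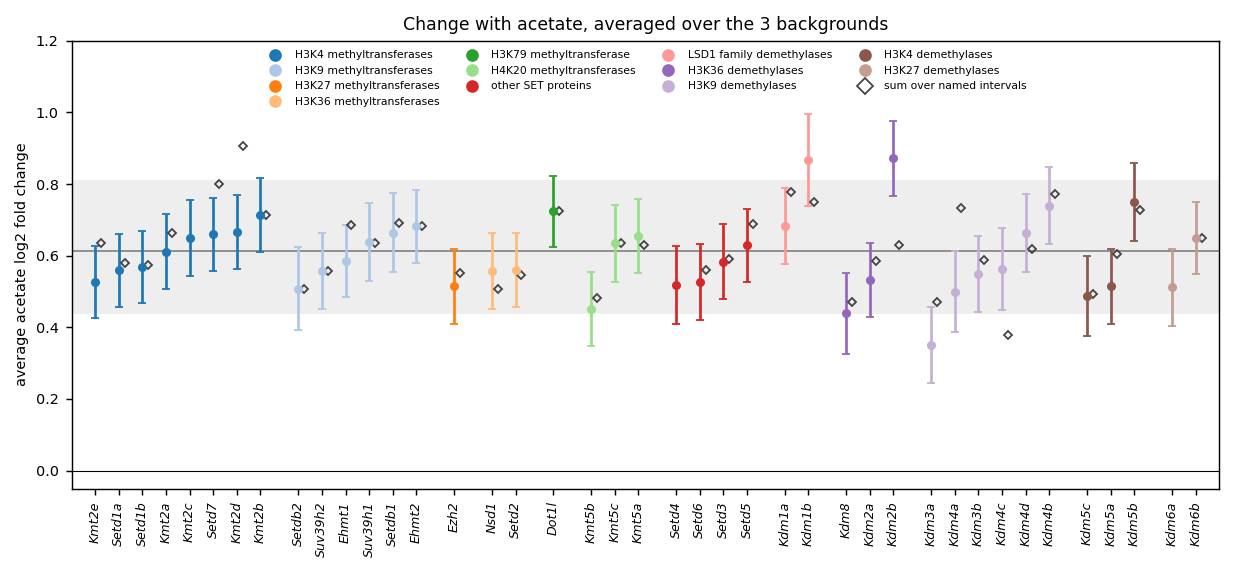
Average log2 fold change with acetate over the 3 backgrounds (y axis) in the start-site interval of each gene (points, with the standard error), grouped by enzyme class, and in the sum over the intervals that carry its name (diamonds). The line is the median of all genes at 0.61 and the grey band runs from their 5th to their 95th percentile, 0.44 to 0.81. Kdm2b and Kdm1b lie above the band and Kdm3a below it.

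No member departed from the change common to all genes by an amount that passed the test. After median-of-ratios scaling, which sets the typical gene to no change, 0 of 39 sums and 0 of 41 start-site intervals passed limma's test in any of the 9 comparisons. Over all genes, 0.0413% of the sums and 0.408% of the start-site intervals rose with acetate by this measure, and 0% and 0.051% fell. The shares that rose were 0.206% of sums and 0.213% of start-site intervals in etomoxir + SB204990 vs. vehicle, and 0.0516% of sums and 0.085% of start-site intervals in etomoxir vs. vehicle. In etomoxir + SB204990 vs. vehicle 0.113% of sums and 0.0765% of start-site intervals fell. At an unadjusted p under 0.05, 3 start-site intervals lay above and 2 below 0 with acetate on average, and 3 sums were higher and 1 lower. The values nearest to the threshold were at Kdm2b, with a relative log2 fold change of 0.26 (adjusted p = 0.051), Kdm8, with -0.17 (adjusted p = 0.1505), Kdm1b, with 0.26 (adjusted p = 0.178), and Kdm3a, with -0.27 (adjusted p = 0.18), all in limma's fit to the start-site intervals. In limma's fit to the sums, the nearest were Kdm1a at 0.14 (adjusted p = 0.227) and Kmt2d at 0.27 (adjusted p = 0.299). The factor of a library is shared by all its genes, so the number of genes that rise together is not a number of separate observations.

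The count of calls with acetate in each background depended on which libraries entered the fit. By sums, 0 of 39 genes passed limma's test in acetate vs. vehicle, and over all genes 0% did, while 23 members and 8341 of all 19458 genes were higher at an unadjusted p under 0.05. DESeq2 on the recovered reads called 17 members higher, against 27.6% of all genes, and edgeR 0. With the set as a term in the fit 10 members rose, against 20.0% of all genes, and 30 did, against 61.5%, in a fit restricted to its own 4 libraries. In the start-site intervals 32 of 41 rose, with 68.7% over all genes, at a median log2 fold change of 0.46 for the members and 0.46 for all genes. That count fell to 0 without the first vehicle, the first acetate or the second acetate library, to 3 without the second vehicle library, and to 21 without any one etomoxir or etomoxir + acetate library. Over all 11773 intervals the counts were 0, 2 and 43, then 2340, then 5492 to 5777. By sums the count went from 0 to 30 without either etomoxir + SB204990 library, with 61.1% and 61.2% of all genes higher, and to 9 without either library with all 3 agents, with 11.9% of all genes higher in both. In 40 of the 41 start-site intervals both acetate libraries lay above both vehicle libraries, as in 92.4% of all genes. All 8 genes listed with the H3K4 methyltransferases passed the start-site test here, and 11 of the 16 demethylase genes did, a difference that was not tested.

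In etomoxir + acetate vs. etomoxir, 36 of 39 sums rose, with 78.2% over all genes. In the start-site intervals 39 of 41 rose, with 94.2% over all genes, at a median of 0.63 for the members and 0.69 for all genes. The 2 that did not pass were Kdm3a (0.27 ± 0.18, limma adjusted p = 0.145) and Kmt5b (0.30 ± 0.18, adjusted p = 0.0928). Kdm2b had the largest value at 0.98 ± 0.18, followed by Kmt2b at 0.92 ± 0.18, an H3K4 methyltransferase gene. The count of sums fell to 15 without the first etomoxir + acetate library, to 22 without the first etomoxir library and to 16 without the second, where 5603, 10182 and 7368 of 19458 genes rose. The start-site count fell to 25 without the first etomoxir + acetate library, where 8827 of 11773 intervals rose.

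With all 3 agents vs. etomoxir + SB204990, 32 of 39 sums rose, with 57.7% over all genes. All 41 start-site intervals rose, with 92.9% over all genes, at a median of 0.72 for the members and 0.70 for all genes. Kdm1b had the largest value at 1.15 ± 0.22 and Kdm4a, an H3K9 and H3K36 demethylase gene, the smallest at 0.52 ± 0.20. The median over the start sites was 0.54 in set 1 and 0.95 in set 2. With shares of reads multiplied by the factor, the total of a library follows its factor. The factors were 0.398 and 1 in etomoxir + SB204990 and 0.647 and 0.867 with acetate added, higher in set 1 and lower in set 2. The count of sums was 0, with 0% over all genes, in a fit restricted to its own 4 libraries. It fell to 0 without the second library with all 3 agents, and to 17, with 1 gene lower, without the first etomoxir + SB204990 library, where 3712 of 19458 genes were higher and 817 lower.

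The response to acetate was not shown to differ between backgrounds. By limma's test of the difference from the response in vehicle, 0 of 39 sums and 0 of 41 start-site intervals passed in etomoxir, with 0% over all genes. In etomoxir + SB204990 the same counts were found, again with 0% over all genes. At the start sites, the largest differences were 0.42 ± 0.25 at Kmt2b in etomoxir (adjusted p = 0.772) and 0.59 ± 0.32 at Kdm1b in etomoxir + SB204990 (adjusted p = 0.689). At an unadjusted p under 0.05 both counts were also 0 in both backgrounds, and DESeq2 and edgeR called 0 sums.

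Neither inhibitor treatment differed from vehicle at any of these genes by limma's test. Etomoxir vs. vehicle gave 0 calls of 39 sums, with 0.0154% of all genes higher, and 0 of 41 start-site intervals, with 0.0849% higher and 0.0849% lower over all genes. At an unadjusted p under 0.05, 0 sums and 2 start-site intervals were higher, against 129 of 19458 sums and 303 of 11773 start-site intervals over all genes, and DESeq2 and edgeR called 0 sums. The members' start-site median was 0.16, against 0.14 for all genes. Kdm4c, which demethylates trimethylated H3K9, had the largest value at 0.43 ± 0.20 (limma adjusted p = 0.861), with 136 and 135 scaled reads in etomoxir and 99.6 and 101 in vehicle. Both etomoxir libraries of Kdm4c were thus above both vehicle libraries, but the difference did not pass the test. With shares of reads multiplied by the factor, the total of a library follows its factor. The factors were 0.467 and 0.792 in vehicle and 0.571 and 0.573 in etomoxir, higher in set 1 and lower in set 2. The direction of the median over the members thus depends on how the factor is applied.

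Etomoxir + SB204990 vs. vehicle gave 0 calls of 39 sums, with 0.00514% of all genes higher, and 0 of 41 start-site intervals, with 0.0255% of all genes higher and 0.0425% lower. Before adjustment, 0 sums and 8 start-site intervals were lower at p under 0.05, against 765 of 19458 sums and 2230 of 11773 start-site intervals over all genes, and DESeq2 and edgeR called 0 sums. The start-site medians were -0.28 for the members and -0.27 for all genes. The lowest value was at Kdm6a, with -0.53 ± 0.18 (limma adjusted p = 0.258). Its start-site interval had 157 and 128 scaled reads in etomoxir + SB204990 and 211 and 200.5 in vehicle. In 38 of the 41 intervals the value was lower in both sets. The medians in set 1 and set 2 were -0.31 and -0.27 for the members and -0.32 and -0.22 over all genes. With shares of reads multiplied by the factor, the total of a library follows its factor. The factors were 0.467 and 0.792 in vehicle and 0.398 and 1 in etomoxir + SB204990, lower in set 1 and higher in set 2. The direction thus depends on how the factor is applied. The start-site count went from 0 to 7 lower without either library with all 3 agents, where 1638 and 1632 of all 11773 intervals were lower.

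Adding SB204990 to etomoxir gave lower H3K27ac at the start sites. Of the 41 intervals, 26 fell in limma's test, with 43.3% over all genes, at a median log2 fold change of -0.45 for the members and -0.41 for all genes. In both sets 39 were lower, with medians of -0.45 in set 1 and -0.48 in set 2. Over all genes these medians were -0.51 and -0.31. The largest decreases were at Kdm4c (-0.67 ± 0.20, adjusted p = 0.0205), Kdm8 (-0.66 ± 0.20, adjusted p = 0.0205), Setdb1 (-0.66 ± 0.19, adjusted p = 0.0198) and Suv39h2 (-0.62 ± 0.18, adjusted p = 0.0198), which like Suv39h1 trimethylates H3K9. Suv39h2 had 247 and 257 scaled reads in etomoxir and 166 and 160 in etomoxir + SB204990, with no overlap. The count fell to 0 without any one etomoxir or etomoxir + acetate library, to 9 without the first etomoxir + SB204990 library, and to 14 or 15 without any one vehicle or acetate library. Over all 11773 intervals the counts were 0 to 191, 975, and 2098 to 2829. When reads were first turned into shares of their library and then multiplied by its factor, 0 passed, the median turned to 0.05, and 26 of the 41 values were above 0, so the direction depends on how the factor is applied.

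By sums, 0 of 39 genes passed in etomoxir + SB204990 vs. etomoxir, with 0% over all genes, while 16 members and 3755 of 19458 genes were lower at an unadjusted p under 0.05. DESeq2 called 4 members and 849 of all genes lower, and edgeR called 0 members. The count went to 27 lower without the second etomoxir + SB204990 library, where 12419 of all 19458 genes were lower. In set 1 all 39 sums were lower, and in set 2 12 were higher. The medians in set 1 and set 2 were -0.59 and -0.17 for the members and -0.62 and -0.0068 over all genes. With shares of reads times the factor, the median of the sums was 0.11 and 36 of 39 were above 0. The depth of the second etomoxir + SB204990 library, 7179165 reads, moved with this difference between the sets, and its part in it was not tested.

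Kdm4c showed a wide gap between the sum and the start site. The sum over its named intervals was 32.7 and 49.9 scaled reads in vehicle, 54.3 and 56.9 in acetate, 41.7 and 32.6 in etomoxir and 65 and 69.1 in etomoxir + acetate. It was 29.5 and 131 in etomoxir + SB204990 and 49.8 and 62.4 with all 3 agents. The value of 131 came from the second etomoxir + SB204990 library and was the highest of the 12. The start-site interval had 91.2 and 79 scaled reads in etomoxir + SB204990 and 114 and 172 with all 3 agents, and 91.2 and 79 were the lowest of its 12 values. The sum gave an average acetate log2 fold change of 0.38 ± 0.26 (limma, adjusted p = 0.168), while the start-site interval gave 0.56 ± 0.11 (adjusted p = 1.27e-06). For etomoxir + SB204990 vs. etomoxir the sum gave 0.74 (-0.49 in set 1 and 1.97 in set 2) and the start site -0.67.

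**Figure D3:**
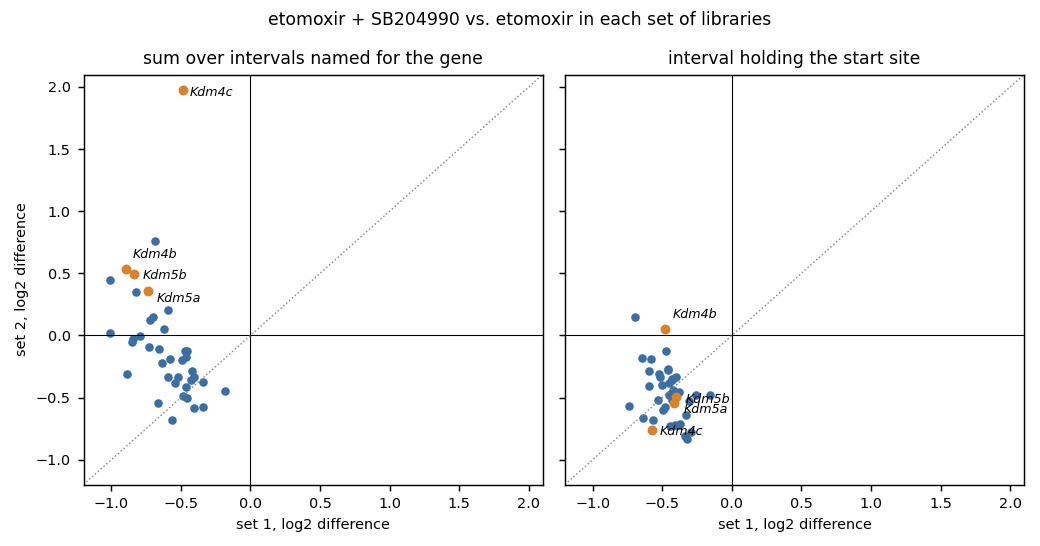
Log2 fold change in etomoxir + SB204990 vs. etomoxir in set 1 (x axis) and set 2 (y axis) for the sums over named intervals of 39 genes and for the start-site intervals of 41 genes, with Kdm4c, Kdm5a, Kdm5b and Kdm4b in orange. At the start sites 39 of the 41 genes are lower in both sets, and by sums 27 of the 39, with Kdm4c at 1.97 in set 2.

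Among single intervals named for the members, 189 of 338 had a mean of at least 10 scaled reads and were tested. With acetate 144 of the 189 rose on average, with 77.2% over all intervals. They were 29 of 32 promoter intervals, against 88.0% of all promoter intervals, and 77 of 107 intronic ones, against 76.2%. The others were 19 of 22 at transcript ends, against 78.9%, 12 of 18 exonic ones, against 81.3%, and 7 of 10 intergenic ones, against 73.8%. Etomoxir vs. vehicle gave 0 calls, with 0.0563% of all intervals higher and 0.00626% lower, and etomoxir + SB204990 vs. vehicle 0, with 0.0313% higher and 0.0219% lower. Before adjustment, at p under 0.05, 4 intervals were higher in the first comparison and 2 lower in the second.

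The genes of the partner proteins were tested by their sums, of which 88.2% rose with acetate on average over all genes. Of the 10 PRC2 partners 9 rose, at a median log2 fold change of 0.59, from 0.43 at Eed, which reads trimethylated H3K27, to 0.82 at Epop. Of the 12 tested partners of the COMPASS and MLL complexes all 12 rose, with a median of 0.57, from 0.47 at Dpy30 to 0.75 at Men1, the menin gene. All 9 other histone methyltransferase genes that were tested rose (median 0.65), as did all 7 other demethylase and Jumonji genes (median 0.64). Of the 7 tested LSD1 partners 6 rose, and they ran from Rcor3 at 0.34 ± 0.30 (limma adjusted p = 0.275) to Rcor2 at 1.00 ± 0.13 (adjusted p = 1.44e-05). Both encode CoREST proteins that bind LSD1. After median-of-ratios scaling Rcor2 was the only partner gene in the 5 lists that passed limma's test in any of the 9 comparisons, with a relative log2 fold change of 0.37 with acetate on average (adjusted p = 0.0454). In etomoxir vs. vehicle the medians of the 5 lists ran from 0.15 to 0.24, and in etomoxir + SB204990 vs. etomoxir from -0.44 to -0.37. The partner genes named are the ends of their lists.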

How the data were processed

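H3K27ac ChIP-seq was measured in 12 libraries, 2 for each of 6 treatments. Per the study's methods, the authors sheared chromatin with micrococcal nuclease, added human chromatin at 7.5%, aligned reads to a merged GRCh38 and mm10 genome with nf-core/chipseq 1.2.2 and set a factor per library from the share of human reads. The deposited table holds 126464 intervals, called by the authors in mm10 and annotated with a gene name. In 2 columns, whose factor is 1, the deposited values are read counts, and in the other 10 the authors' signal is a read count multiplied by the factor. These 2 columns are etomoxir + acetate in set 1 and etomoxir + SB204990 in set 2. The authors set the factors relative to the highest one, and whether this was done for each set is not stated. If it was, the sets are on different scales, and SDs and comparisons across sets carry that difference. Dividing by the factor gave whole reads for 100% of values (tolerance 0.001 reads), from 7179165 to 16676442 reads per library. Peak settings are not given in the sources used here. No interval or floor was attached to these counts, and the precision rests on 2 libraries per treatment.

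Values were summed per gene name, and limma 3.58.1 (R 4.3.3) was fitted to log2(sum + 1), so that fold changes of low genes are understated, for 19458 genes with a mean of at least 10, with 6 group means over 12 libraries, an intensity trend and Benjamini-Hochberg adjustment over all genes tested. The same fit was made to the interval that holds a gene's start site (GENCODE M21 protein-coding transcripts, 11773 genes) and to single intervals (63903). The start-site fit was added after the names in the table had been seen. Its prior degrees of freedom were infinite, so standard errors lean on the spread pooled over all genes, and exact permutation p-values are given beside it. In the sums the prior was 19.64 degrees of freedom beside 6 residual. The average acetate change is the mean of the 3 differences with and without acetate. On simulated data the fit recovered 200 of 200 genes changed by 1 on the log2 scale for that comparison, with 9 false calls of 19458 genes. The simulation drew each gene independently, changed genes in both directions and put no error on the library factors. It therefore does not measure false calls that an error in a factor would give. DESeq2 1.42.0 and edgeR 4.0.16 on the recovered reads, other scalings, filters and left-out libraries were the alternatives.

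The members, lists and tests were chosen with earlier results of these data known. Named genes were a fixed list of enzymes, of which 22 had a name in the table, up to 5 called members with the largest change in each comparison, and the 3 highest and 3 lowest members by average acetate change and by vehicle sum. Promoter sequences came from RefSeq (GRCm38.p6), and the intervals' ends lay within the GRCm38 chromosome lengths.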

Additional observations from a re-analysis of the deposited data

How the results depend on the processing

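Calls of higher H3K27ac with acetate depended on the scaling, and for shares of reads multiplied by the factor, which keeps the factor, the members' median changes of 0.43 (sums) and 0.38 (start sites) stayed above 0 without a call. By sums, the counts of 38 (average), 36 (etomoxir) and 32 (etomoxir + SB204990) members became 0 under median-of-ratios scaling, total-sum scaling, median-of-ratios scaling with replicate block, and shares of reads multiplied by the factor. The same held for 144 single intervals, and at the start sites, where 41, 39 and 41 became 0 under median-of-ratios scaling and shares multiplied by the factor. Acetate vs. vehicle went from 0 of 39 to 17 with DESeq2, 10 with the replicate block, 30 with only the 4 libraries compared, 5 of 24 with promoter intervals only and 32 of 41 at start sites. With only its own 4 libraries, the acetate comparison in etomoxir + SB204990 went from 32 to 0. Promoter intervals alone gave 23 (average), 19 (etomoxir) and 15 (etomoxir + SB204990) of the 24 genes tested. Etomoxir + SB204990 vs. etomoxir went from 0 to 4 with DESeq2, 26 of 41 at start sites and 30 of 41 there with the replicate block, which left 32 in acetate vs. vehicle. The promoter-interval counts and the start-site counts with the block stand without a share over all genes. They do not show how the members compare with other genes.

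The libraries share a set number, and the labels do not say whether they are pairs. The main fits have no term for the set. Of 15 correlations of the deviations between groups, from -0.22 to 0.60, 4 were above 0.1, and 3 of these (0.56 to 0.60) were among vehicle, acetate and etomoxir + SB204990. The set 2 libraries of these 3 groups had the fewest reads, 9689378, 11597199 and 7179165, and the part of depth was not tested. The correlations run over genes and miss a shift shared by all genes of a library. They therefore cannot decide whether the sets are pairs.

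Values of named genes that changed sign are relative to the typical gene. Under median-of-ratios scaling, with and without the replicate block, the average acetate log2 fold change was -0.083 at Ezh2, -0.0049 at Kdm2b, -0.17 at Kdm3a, -0.25 at Kdm4c, -0.14 at Kdm5c, -0.16 at Kdm8, -0.0071 at Kmt5a, -0.13 at Nsd1, -0.055 at Setd1a, -0.063 at Setd1b, -0.089 at Setd2 and -0.078 at Suv39h2. Under total-sum scaling it was -0.073 at Ezh2, -0.15 at Kdm3a, -0.24 at Kdm4c, -0.13 at Kdm5c, -0.15 at Kdm8, -0.12 at Nsd1, -0.045 at Setd1a, -0.053 at Setd1b, -0.079 at Setd2 and -0.067 at Suv39h2. At start sites under median-of-ratios scaling it was -0.032 at Ehmt1, -0.10 at Ezh2, -0.27 at Kdm3a, -0.11 at Kdm4a, -0.051 at Kdm4c, -0.13 at Kdm5c, -0.17 at Kdm8, -0.0057 at Kmt2a, -0.059 at Nsd1, -0.059 at Setd1a, -0.051 at Setd1b, -0.057 at Setd2 and -0.059 at Suv39h2. Over 28 named genes, 913 of 1093 values kept direction and side of the threshold, 118 lost the call, 15 gained it and 47 changed sign. All 47 came from median-of-ratios or total-sum scaling, which shift all genes of a library alike and remove the common rise, so they do not bear on how stable a gene's direction is.

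Without each library in turn, the sums gave 37 to 39 (average), 0 to 30 (acetate vs. vehicle), 15 to 39 (etomoxir), 0 to 39 (etomoxir + SB204990), 0 to 2 (etomoxir + SB204990 vs. vehicle), 0 to 27 (etomoxir + SB204990 vs. etomoxir), 0 and 0 to 1 (differences between backgrounds) and 0 (etomoxir vs. vehicle). Single intervals gave 103 to 176 (average), 0 (etomoxir vs. vehicle) and 0 to 1 (etomoxir + SB204990 vs. vehicle). Start sites gave 41, 0 to 38, 25 to 40, 35 to 41, 0 to 7, 0 to 39, 0, 0 and 0 in the same order. There, acetate vs. vehicle gave 21 without any one etomoxir or etomoxir + acetate library and 3 without the second vehicle library. Etomoxir + SB204990 vs. etomoxir gave 14 or 15 without a vehicle or acetate library, and 9 and 18 without its first and second etomoxir + SB204990 library. The causes were not tested. Where 1 library is left in a group, it is taken to vary like the others.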
